A study of Mus musculus with 4 samples.

Results

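The claudin family was followed in the jejunum and ileum of suckling mice through 8 genes, Cldn2, Cldn3, Cldn4, Cldn7, Cldn8, Cldn12, Cldn15 and Cldn23, out of 33 claudin symbols and 32227 genes in the feature lists. They were taken by symbol, and their RNA was read in every library, region and cell class, with each cell given the same weight. All 8 passed the filter on low counts in both cell classes. The data are single-cell RNA sequencing of epithelium from 2 wild-type (WT) mice at postnatal day 6 (P6), each giving 1 library of jejunum and 1 of ileum. Mouse 1 is labelled male and batch 1, and mouse 2 is labelled female and batch 2, so animal, batch and labelled sex cannot be told apart. No group carried a treatment or an altered allele, and the region of the gut was the only labelled factor that differed within a mouse. The epithelium had been freed from the wall with EDTA and broken up with dispase, so a cell's place on the villus was not recorded.

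Tight junctions seal the space between neighbouring epithelial cells, and claudins are the membrane proteins that form their strands. Some claudins close the space, and others line pores that let small ions or water through. In the gut, Cldn2 and Cldn15 encode the best-known pore formers, through which sodium returns to the lumen to drive uptake of glucose and other nutrients. Cldn3, Cldn4 and Cldn8 encode claudins mostly described as sealing, and Cldn7 encodes an abundant gut claudin that also lies along the lateral membrane with EpCAM.

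The libraries held 7539 to 10001 called cells each, and 30521 cells were kept in all. Median depth was 12047.5 and 10916 UMIs (distinct RNA molecules) per kept cell in the ileum of mice 1 and 2, against 4690 and 5884 in the jejunum, so depth moved with region. The median mitochondrial share also did, at 3.61% and 3.74% in the ileum, against 6.37% and 9.94% in the jejunum, and its part in the region differences was not tested. Levels are therefore given as counts per 1000000 UMIs of a cell (CPM), averaged over cells of at least 2000 UMIs with equal weight per cell, and shares of cells with a UMI are given after each cell was thinned to 2000 UMIs. Cells labelled enterocyte-like, the villus class, numbered 6658 and 7841 in the ileum, against 8273 and 5057 in the jejunum. Cells labelled stem/progenitor-like, the crypt class, numbered 553 and 576 in the ileum, against 628 and 601 in the jejunum. The summed level of 15 crypt markers was 3700 to 5457 CPM in the crypt class and 242 to 267 CPM in the villus class, and that of 10 enterocyte markers was 3677 to 7055 and 13210 to 30490 CPM. Enterocyte markers moved with region, at 13210 and 16230 CPM in the ileal and 30110 and 30490 CPM in the jejunal villus class, and at 3677 and 4005 against 6483 and 7055 CPM in the crypt class. Immune markers summed to 5.95 to 29.6 CPM and stromal and endothelial markers to 36.3 to 65.3 CPM across the 8 sums, below the epithelial lists in every sum. Xist was at 537 and 467 CPM in mouse 1 and at 0.712 and 0.984 CPM in mouse 2, while Eif2s3y, which lies on the Y chromosome, stood at 89.1 and 66.4 CPM in mouse 2 against at most 0.109 CPM in mouse 1, so all 4 libraries went against their sex labels. Libraries shared at most 1 called barcode, and no kept one.

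The 250 bases before the start of 4 members are shown because these are the genes whose RNA differed most between the crypt and villus classes. Cldn4 and Cldn3 lie next to each other on opposite strands, with no other gene starting between them, yet they stood on opposite sides of the crypt-villus comparison below. The windows come from RefSeq on build GRCm38.p6 and are written 5′ to 3′ on the strand of the gene. They lie at chr5:134946935-134947184 (minus strand, Cldn4), chr5:134985964-134986213 (plus, Cldn3), chr5:136967619-136967868 (plus, Cldn15) and chrX:139800558-139800807 (plus, Cldn2). Entries for 6 of the 8 members were found, and Cldn8 and Cldn23 were not among them. Capitals mark matches, on either strand, to TATAAA (the TATA box), TGACTCA (bound by AP-1 factors), GGGCGG (the GC box) or TTTATT (a core bound by CDX factors), motifs that were picked after the sequences were seen and that do not overlap one another here.
Cldn4: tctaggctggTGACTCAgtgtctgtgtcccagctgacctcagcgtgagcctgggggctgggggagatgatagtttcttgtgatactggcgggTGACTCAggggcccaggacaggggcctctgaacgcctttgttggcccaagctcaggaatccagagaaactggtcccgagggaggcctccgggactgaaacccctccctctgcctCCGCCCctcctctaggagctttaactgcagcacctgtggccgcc
Cldn3: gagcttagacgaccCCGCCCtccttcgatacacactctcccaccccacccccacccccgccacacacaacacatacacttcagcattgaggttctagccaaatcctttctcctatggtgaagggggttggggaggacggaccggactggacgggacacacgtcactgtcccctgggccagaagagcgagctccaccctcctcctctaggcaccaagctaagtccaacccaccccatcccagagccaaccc
Cldn15: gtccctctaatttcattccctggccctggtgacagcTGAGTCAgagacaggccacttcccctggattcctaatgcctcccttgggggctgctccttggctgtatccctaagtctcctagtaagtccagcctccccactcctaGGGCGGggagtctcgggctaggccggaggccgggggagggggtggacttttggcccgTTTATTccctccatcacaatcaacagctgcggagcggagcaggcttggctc
Cldn2: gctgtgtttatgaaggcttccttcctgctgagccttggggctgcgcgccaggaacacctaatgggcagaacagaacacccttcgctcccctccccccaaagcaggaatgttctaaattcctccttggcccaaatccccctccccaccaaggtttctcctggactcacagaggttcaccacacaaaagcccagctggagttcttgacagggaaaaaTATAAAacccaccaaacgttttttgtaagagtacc
The Cldn2 window was the one of the 4 with a TATA box, which began 35 bases before the start, while 12.4% of 32851 such windows held one. The AP-1 motif, held by 4.46% of windows, occurred at 240 and 158 bases before the start of Cldn4 and at 214 bases before that of Cldn15. A GC box was present in the Cldn4, Cldn3 and Cldn15 windows and in 32.7% of all windows, and the CDX core was present in the Cldn15 window and in 18.1% of all windows. These matches describe letters and do not show binding.

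Cldn7 RNA was the most abundant of the 8 in both classes, both regions and all 4 libraries. Its level in the villus class was 1383 and 1393 CPM in the ileum of mice 1 and 2 and 1322 and 1301 CPM in the jejunum. Crypt cells held 1371 and 1436 CPM of it in the ileum, against 1360 and 1401 CPM in the jejunum. Between 89.9% and 92.8% of thinned cells held a Cldn7 UMI in every class and library. The 8 levels of Cldn7 thus spread over a narrow range, while the genes below it changed places between classes. In the ileal villus class the order ran Cldn7, Cldn4, Cldn2, Cldn3, Cldn8, Cldn12, Cldn23 and Cldn15, and the libraries of Cldn4 and Cldn2, of Cldn3 and Cldn8, and of Cldn12 and Cldn23 overlapped. In the jejunal villus class the order ran Cldn7, Cldn2, Cldn4, Cldn3, Cldn23, Cldn15, Cldn12 and Cldn8, with overlap of Cldn15 and Cldn12. In the crypt class of the ileum Cldn3 and Cldn2 followed Cldn7 with overlapping libraries, and then came Cldn4, Cldn15, Cldn8, Cldn23 and Cldn12, with overlap of Cldn23 and Cldn12. In the jejunal crypt class Cldn2 and Cldn3 overlapped, Cldn4 and Cldn15 overlapped, and Cldn23, Cldn12 and Cldn8 came last. The libraries count the 3′ ends of transcripts, so levels compare genes per molecule and need no correction for length. The sum of the 8 levels was 2850 and 2669 CPM in the ileal villus class, 2406 and 2589 CPM in the jejunal villus class, and 2286 to 2591 CPM in the crypt class.

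**Figure D1:**
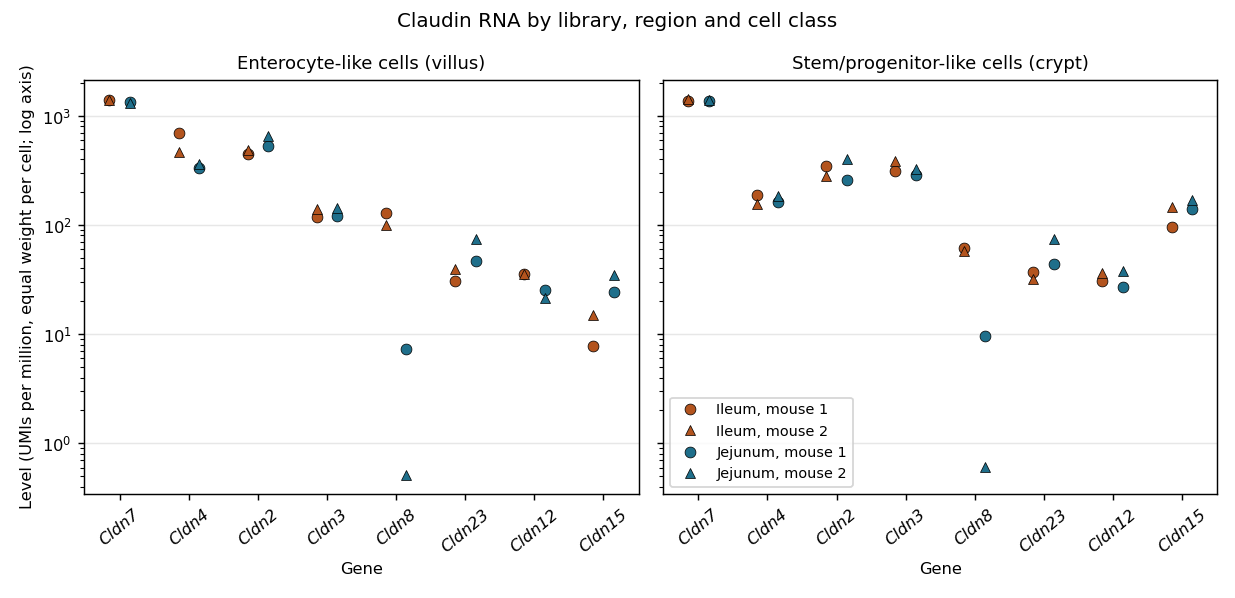
Level of each claudin (vertical log axis, CPM averaged over cells with equal weight) in the enterocyte-like class on the left and the stem/progenitor-like class on the right. Each point is 1 library, coloured by region and shaped by mouse. Cldn7 lies between 1301 and 1436 throughout, Cldn15 and Cldn3 sit higher in the crypt panel, Cldn4 sits higher in the villus panel, and the Cldn8 points of the jejunum lie below those of the ileum in both.

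Around this constant Cldn7, several other claudins differed in level between the crypt and villus classes. The classes were formed by clustering the same cells, from which the 8 members were left out of the variable genes (Cldn3, Cldn4 and Cldn15 had been among the 2000), so these contrasts are given with no test. Cldn15, encoding a sodium pore, had the largest contrast. Its level in the crypt class was 94.8 and 147 CPM in the ileum, against 140 and 170 CPM in the jejunum, against 7.80 and 14.97 CPM and 24.3 and 34.7 CPM in the villus class. The log2 ratio of villus over crypt was -3.60 and -3.30 in the ileum, against -2.53 and -2.30 in the jejunum, a mean of -2.93 ± 0.62 (SD, n = 4 libraries) or 7.63-fold higher in the crypt class. After thinning, 17.2% to 25.7% of crypt cells held a Cldn15 UMI, while 1.30% and 2.59% of ileal and 4.27% and 5.94% of jejunal villus cells did (before thinning 36.5% to 52.4% and 5.29% to 15.8%).

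Cldn3, encoding a sealing claudin, was 2.51-fold higher in the crypt class (log2 villus over crypt -1.33 ± 0.13, SD, n = 4 libraries). Its crypt level was 311 and 382 CPM in the ileum, against 288 and 325 CPM in the jejunum, and its villus level was 117 and 139 CPM in the ileum, against 120 and 144 CPM in the jejunum. Every crypt value lay above every villus value. The 3′ end of Cldn3 overlaps an antisense gene, Wbscr25, in the GENCODE M21 annotation, so some of its UMIs could belong to that gene if strand was not used in counting.

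Cldn4 ran the other way. Its villus level was 699 and 464 CPM in the ileum, against 329 and 361 CPM in the jejunum, and its crypt level was 189 and 154 CPM in the ileum, against 160 and 184 CPM in the jejunum. The villus class was higher in all 4 libraries, by 2.59-fold on average (log2 1.37 ± 0.44, SD), and the log2 ratio was 1.88 and 1.59 in the ileum against 1.04 and 0.97 in the jejunum. Cldn2, the other pore former, was also higher in the villus class in all 4 libraries, by 1.66-fold (log2 0.73 ± 0.28, SD). Its villus level was 448 and 482 CPM in the ileum, against 531 and 653 CPM in the jejunum, and its crypt level was 345 and 279 CPM in the ileum, against 257 and 399 CPM in the jejunum. The 2 pore-forming claudins thus differed in direction, with Cldn15 higher in the crypt class and Cldn2 higher in the villus class. Cldn8 was higher in the villus class in the ileum (log2 1.05 and 0.81) and lower in the jejunum (-0.39 and -0.26), where the crypt class of mouse 2 held 4 UMIs in all. Cldn7, Cldn12 and Cldn23 had mean log2 ratios of -0.04 ± 0.05, -0.18 ± 0.44 and 0.03 ± 0.25 (SD, n = 4 libraries), and their libraries did not share a direction.

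Immune-like cells should lack claudins, and UMIs found there show what share can arise without expression. In 48 such cells of 2000 UMIs or more, pooled over libraries, 27.1% held a UMI of Cldn7 after thinning, 10.4% of Cldn4, 8.33% of Cldn2, 6.25% of Cldn3, 4.17% of Cldn23 and 2.08% of Cldn15 (exact 95% interval 0.0527% to 11.1%). For Cldn8 and Cldn12 the count was 0 of 48 cells, with an exact 95% interval that reaches up to 7.40%. These intervals and limits cover counting error only. Median depth was 5158 UMIs in the immune-like cells and 4095.5 to 13376 UMIs in the 8 sets of villus and crypt cells. The crypt shares of Cldn15 lay above the pooled interval, while its shares over the whole villus class lay within it. Within that class the cluster led by Snhg20 held Cldn15 UMIs in 13.5% of ileal and 21.5% of jejunal cells. All villus and crypt shares of Cldn23, 5.04% to 13.1%, lay within its pooled interval of 0.509% to 14.3%. Those of Cldn12, 4.27% to 7.36%, lay under its upper bound of 7.40%. With 48 immune-like cells these intervals are wide, so this measure could not decide whether the shares of either gene lay above background. The pooled immune-like level was 2.06 CPM for Cldn12 and 22.8 CPM for Cldn23. In the villus and crypt classes the levels were 21.5 to 37.7 CPM for Cldn12 and 30.6 to 74.3 CPM for Cldn23. The Cldn4 crypt share in the jejunum of mouse 1, 22.6%, also lay within its interval of 3.47% to 22.7%. For Cldn8 the pooled limit rests mostly on jejunal cells. The ileum gave 0 of 9 and 0 of 10 immune-like cells with a Cldn8 UMI after thinning. The exact 95% intervals reach up to 33.6% and 30.8%, so with so few cells this measure could not decide on the ileal Cldn8 shares. The Cldn8 level of these immune-like cells was 28.5 and 0 CPM. In the ileum it was 129 and 101 CPM in the villus class and 62.1 and 57.6 CPM in the crypt class. Before thinning 22.2% of the 9 cells of mouse 1 held a Cldn8 UMI. The Cldn7 level of immune-like cells was 602 CPM in the ileum of mouse 1 and 142 to 198 CPM in the other libraries, and whether these UMIs came from free RNA or from mixed cells was not tested. Among other epithelial classes, 245 enteroendocrine-like cells pooled over libraries held 777 CPM of Cldn4, 1026 of Cldn7, 308 of Cldn3, 209 of Cldn2 and 19.0 of Cldn15. With 19 goblet-like cells, no claudin level was read.

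Between regions, 2 contrasts stood out in size, Cldn8 toward the ileum and Cldn15 toward the jejunum. UMI sums per library were compared with edgeR's quasi-likelihood test across all genes, and a gene was called where its p, adjusted by the Benjamini-Hochberg method, stayed under 0.05. In the villus class 1 of 8 claudins was called, against 6.86% of 19723 genes tested (4.01% toward the ileum and 2.85% toward the jejunum). Among crypt cells 1 of 8 was called, against 3.21% of 13068 genes (1.9% toward the ileum and 1.31% toward the jejunum). In all kept cells, where no cluster is used, 1 of 8 was called, against 7.49% of 20368 genes (4.35% toward the ileum and 3.14% toward the jejunum). The median log2 fold change of the 8 members, ileum over jejunum, was -0.19 in the villus class and -0.02 in the crypt class, beside -0.01 and 0.00 over all genes tested. Nothing is called particular to the family from these counts.

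**Figure D2:**
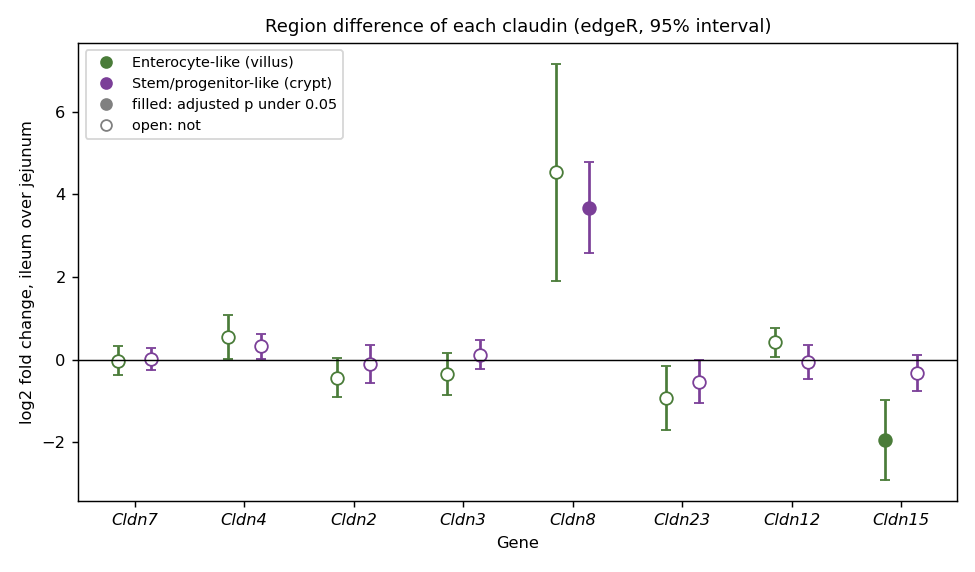
Log2 fold change of ileum over jejunum for each claudin (vertical axis) from edgeR on UMI sums of 2 libraries per region, with 95% intervals, in the enterocyte-like class (green) and the stem/progenitor-like class (purple). Filled points have an adjusted p under 0.05: Cldn15 in the villus class at -1.94 and Cldn8 in the crypt class at 3.68.

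Cldn8, a sealing claudin best known from the distal colon and the kidney collecting duct, was present in the ileum and nearly absent from the jejunum. Its villus level was 129 and 101 CPM in the ileum, against 7.35 and 0.511 CPM in the jejunum, and its crypt level was 62.1 and 57.6 CPM in the ileum, against 9.65 and 0.613 CPM in the jejunum. The regions did not overlap in either class, and the jejunum of mouse 1 stood above that of mouse 2 in both. A Cldn8 UMI was found in 22.5% and 16.9% of ileal villus cells after thinning and in 1.34% and 0.144% of jejunal ones. In the crypt class the ileum was 12.8-fold higher (log2 3.68 ± 0.49, SE, adjusted p = 0.00472 by edgeR), with log2 6.07 without the jejunum of mouse 1 and 2.77 without that of mouse 2. In the villus class the log2 fold change was 4.53 ± 1.05 (SE, 95% interval 1.90 to 7.17, adjusted p = 0.0635), which was not called. With the animal as a block it was 5.09 (adjusted p = 0.0153 by edgeR, where 16.5% of genes were called). Leaving out the jejunum of mouse 1 gave a villus log2 of 7.39 and leaving out that of mouse 2 gave 3.68, so the size rests on which jejunal library is used. DESeq2 gave an adjusted p of 0.123 in the crypt class, where it called 3.22% of genes, and 0.0134 in the villus class, where it called 18.6%. With the animal as a block the crypt call held (log2 3.71, adjusted p = 5.5e-05 by edgeR, where 9.4% of genes were called).

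Other genes with ileal RNA were read beside Cldn8 in the jejunum of mouse 1. Summed Cldn8 was 9.29 CPM there and 0.667 CPM in mouse 2. Fabp6, encoding an ileal bile acid carrier, was at 0.420 and 0.310 CPM in the 2 jejunal villus sums against 209 and 369 CPM in the ileum. Scd2 was at 0.402 and 0.167 CPM in the jejunum against 327 and 132 CPM in the ileum, and Anxa8 at 0.766 and 0.834 CPM in the jejunum against 15.7 and 23.7 CPM in the ileum. Afp, at 4.45 and 2.10 CPM, and Cgnl1, at 4.27 and 1.43 CPM, were like Cldn8 higher in the jejunum of mouse 1. The part of stray ileal RNA in the jejunal Cldn8 values was not tested. Within the ileum, the summed Cldn8 level of the crypt class was 52.4% and 65.0% of that of the villus class. For the enterocyte markers this share ran from 12.2% to 132% in mouse 1 and from 10.7% to 86.0% in mouse 2. The medians were 25.9% and 21.4%. Alpi and Lct, which encode brush border enzymes, were low among them, at 10.7% to 13.9%. Vil1 was at 61.19% and 51.85%, and Anpep was highest in both mice. Cldn8 thus lay above the medians but within the range of these markers. With clusters at resolution 0.5 the ileal crypt class held 135 and 102 Cldn8 UMIs of 2877583 and 2505737. In the main classes it held 256 and 244 of 3568544 and 3362133, so the crypt level depended on how crypt cells were drawn. At resolution 0.5 Cldn8 was still the 1 claudin called in the crypt class. The part of villus RNA in the crypt values was not tested. The region difference of Cldn8 was 0.92 larger on the log2 scale in the villus class (SE 0.28, interaction adjusted p = 0.0619 by edgeR), which was not called.

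Cldn15 was lower in the ileal villus class. Every ileal villus value lay below every jejunal one, and the jejunum over the ileum was 3.11-fold in mouse 1 and 2.32-fold in mouse 2. By edgeR the log2 fold change was -1.94 ± 0.39 (SE, 95% interval -2.91 to -0.97, adjusted p = 0.0488). These sums give deep cells more weight, and with each cell thinned to 2000 UMIs the log2 fold change was -1.68 (adjusted p = 0.0418 by edgeR). The call was lost without the ileum of mouse 1 (log2 -1.48, adjusted p = 0.0791 by edgeR), without the jejunum of mouse 2 (-1.75, adjusted p = 0.0773), without the filter on low counts (adjusted p = 0.0901) and without the 6% highest Scrublet scores (adjusted p = 0.0508). Without the ileum of mouse 2 the log2 fold change was -2.62 (adjusted p = 0.0299 by edgeR). In the crypt class, where Cldn15 was higher, the regions overlapped (log2 -0.32 ± 0.19, SE, 95% interval -0.75 to 0.11, adjusted p = 0.47 by edgeR). The interaction of region and class tested this contrast directly and gave -1.70 ± 0.17 (SE, adjusted p = 3.5e-05 by edgeR), while 8.37% of 19413 genes were called there (4.08% more positive and 4.29% more negative in the villus class). Cldn15 was the 1 claudin of 8 called for it, and it was also called with each library left out in turn. With each cell thinned to 2000 UMIs the interaction was -1.37 (adjusted p = 0.000439).

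The other pore-associated member, Cldn2, was lower in the ileal villus class by a smaller amount (log2 -0.43 ± 0.19, SE, 95% interval -0.91 to 0.05, adjusted p = 0.208 by edgeR), with regions that did not overlap in level. Cldn12, whose product has been tied to calcium permeability, was at 35.5 and 35.5 CPM in the ileal villus class and at 25.1 and 21.5 CPM in the jejunum (log2 0.42 ± 0.14, SE, adjusted p = 0.126 by edgeR). Crypt levels of Cldn12 were 30.5 and 36.0 CPM in the ileum, against 27.2 and 37.7 CPM in the jejunum, and the regions overlapped.

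Cldn4 was higher in the ileal villus class by 2.12-fold in mouse 1 and 1.29-fold in mouse 2 at equal weight per cell. The log2 fold change was 0.56 ± 0.21 (SE, 95% interval 0.03 to 1.08, adjusted p = 0.161 by edgeR), and the ileum of mouse 1 stood well above that of mouse 2. Among crypt cells the fold change was 0.33 on the log2 scale (adjusted p = 0.26 by edgeR), and its direction turned with each cell thinned to 2000 UMIs (-0.09), whereas it was called with a mitochondrial share under 10% (0.66, adjusted p = 0.04) and without the cluster led by Fsip1 (0.69, adjusted p = 0.0425). Cldn23, a claudin described in differentiated colonic surface cells, was at 30.6 and 39.4 CPM in the ileal villus class and at 46.2 and 74.3 CPM in the jejunum. Its log2 fold change was -0.93 ± 0.31 (SE, adjusted p = 0.131 by edgeR), and it was called with the animal as a block (-0.90, adjusted p = 0.0112). Crypt levels of Cldn23 were 37.3 and 31.7 CPM in the ileum, against 43.9 and 74.1 CPM in the jejunum (log2 -0.53, adjusted p = 0.292 by edgeR). The crypt fold change turned without the cluster led by Fsip1 (0.17) and was -1.10 with each cell thinned to 2000 UMIs. Cldn3 differed by -0.35 ± 0.20 in the villus class and 0.12 ± 0.15 in the crypt class (log2, SE, adjusted p = 0.306 and 0.776 by edgeR). For Cldn7 the villus log2 fold change was -0.03 ± 0.14 (95% interval -0.38 to 0.32), and its sign turns with the scaling, since TMM factors moved the median of all genes by -0.11 from that of plain CPM.

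Within the villus class, 16 of 17 clusters held at least 100 cells of 2000 UMIs or more in each region, and the levels were compared cluster by cluster after pooling both libraries of a region. Cldn8 and Cldn4 were higher in the ileum in 16 of 16 clusters, as was Cldn12. Some clusters held few UMIs, such as 3 ileal and 8 jejunal Cldn12 UMIs after thinning in the cluster led by Lars2 (18.0 against 15.5 CPM). Cldn15 and Cldn23 were higher in the jejunum in 16 of 16, Cldn2 in 15 of 16 and Cldn3 in 13 of 16. In the cluster led by Defa24 the ileal cells had 1 Cldn15 UMI left after thinning. Cldn7, whose fold change in the villus class was near 0, was higher in the ileum in 13 of 16. The clusters of a region are parts of the same 2 libraries, so they are not replicates and these counts carry no test. Cldn8 ran from 46.5 to 211 CPM across ileal clusters and from 0.709 to 10.4 CPM across jejunal ones, so no jejunal cluster reached the lowest ileal one. Cldn15 was concentrated in 2 clusters, singled out after their values were seen. The cluster led by Snhg20 and Gm17494 held 85.0 CPM in the ileum and 139 CPM in the jejunum, and the cluster led by Fabp6 and Aldh1a1 held 31.6 and 101 CPM. The other 14 clusters reached at most 14.7 CPM in the ileum and 35.2 CPM in the jejunum. Crypt markers summed to 273 and 370 CPM (ileum and jejunum) in the first of these clusters and to 282 and 329 CPM in the second. Villus clusters ran from 214.5 to 304 CPM in the ileum and from 208 to 512 CPM in the jejunum. The 3 crypt clusters ran from 1995 to 7015 CPM. Enterocyte markers summed to 9452 and 10350 CPM in the ileal cells of the 2 clusters, below every other ileal villus cluster. In the jejunal cells they summed to 26350 and 26420 CPM, where the clusters led by Airn (22770 CPM) and Lars2 (25420 CPM) were lower. Whether these cells lay near the crypt was not tested. The cluster led by Snhg20 was shallow, with medians of 3545 and 3886 UMIs per cell, and that led by Fabp6 deep, with 17210 and 17540. Cldn4 was highest in the ileal cells of the cluster led by Sprr2a2 and Nt5e, at 943 CPM against 329 CPM in the jejunal cells, and lowest in the cluster led by Hnf4aos, at 133 and 37.2 CPM.

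**Figure D3:**
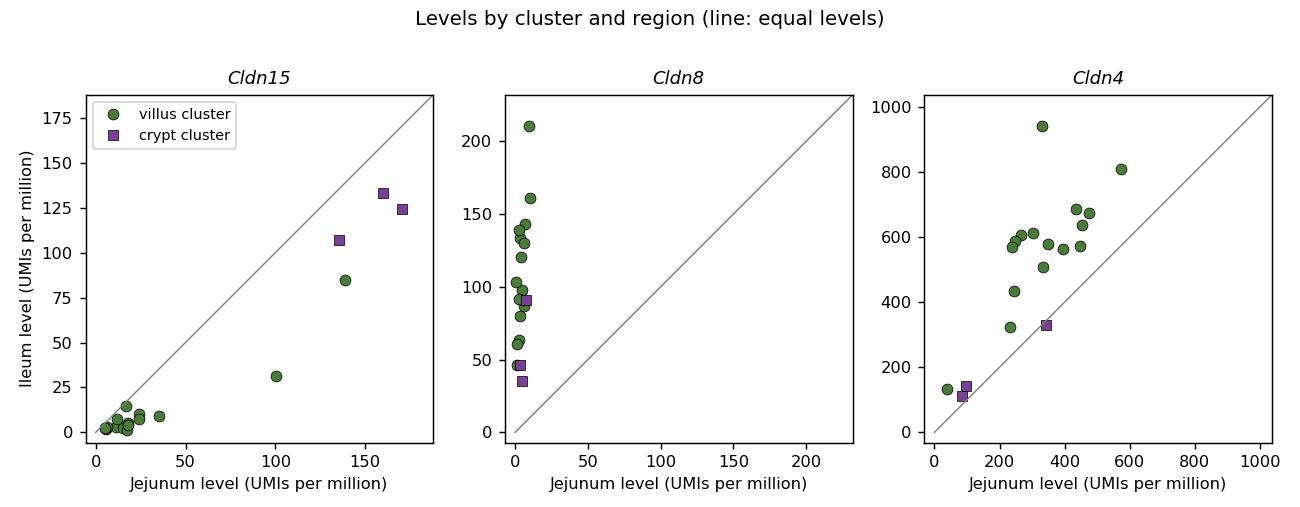
Level in the ileum (vertical axis, CPM) against the jejunum (horizontal axis) for Cldn15, Cldn8 and Cldn4. Each point is 1 cluster with at least 100 cells in each region, green for the 16 villus clusters and purple for the 3 crypt clusters, and the line marks equal levels. All villus clusters lie below the line for Cldn15 and above it for Cldn8 and Cldn4.

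Villus cells were also ordered within each library by 8 genes that mark the villus tip, such as Ada, Nt5e and Krt20, and split into 3 equal bins, low, middle and high. Position was not measured, and 18.3% to 20.0% of cells lay close to a cut, within 0.1 SD. Cldn15 was lower in the high than in the low bin in all 4 libraries, at 4.99 against 12.6 CPM and 13.4 against 21.5 CPM in the ileum. In the jejunum it was at 22.4 against 31.4 CPM and 24.9 against 49.1 CPM (mean log2 -0.87 ± 0.37, SD, n = 4 libraries). The middle bin held the lowest value in the ileum of mouse 2 (9.97 CPM) and the jejunum of mouse 1 (19.0 CPM). Cldn8 in the ileum was at 152 and 125 CPM in the low bin and at 107 and 79.0 CPM in the high one, mean log2 -0.65 ± 0.21 over 4 libraries. The largest of these, -0.94, came from the jejunum of mouse 2. Cldn8 was at 0.868 against 0.453 CPM there, from 28 UMIs in the whole villus class. Cldn23 and Cldn3 were lower in the high bin in 4 of 4 libraries, by log2 -0.39 ± 0.19 and -0.29 ± 0.27, and the Cldn3 difference was small in both jejunal libraries. Cldn2 was also lower in the high bin in 4 of 4, by log2 -0.13 ± 0.12. Cldn4, Cldn7 and Cldn12 had mean log2 ratios of 0.03, -0.02 and -0.10, with libraries on both sides of 0. These are descriptions of cells within libraries, with no test.

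**Figure D4:**
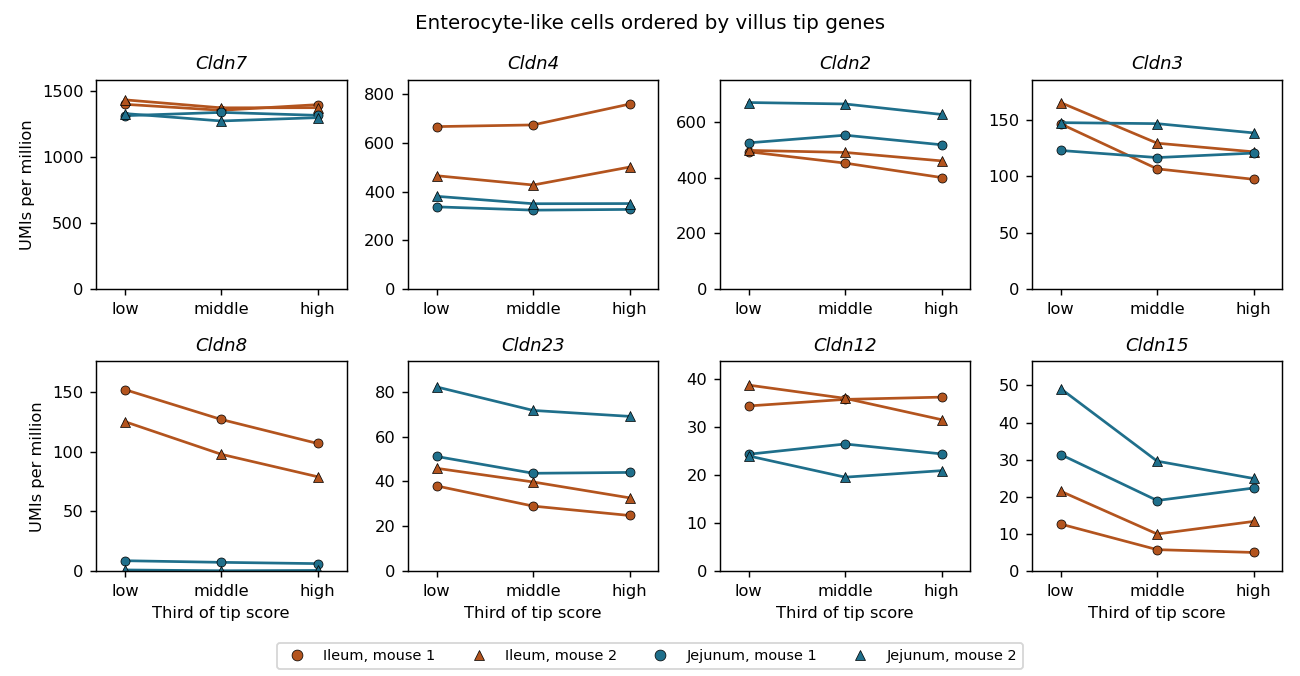
Level of each claudin (vertical axis, CPM, starting at 0) in 3 bins of the enterocyte-like cells ordered by a tip score (horizontal axis). Each line is 1 library, coloured by region and shaped by mouse. Cldn15 and Cldn8 are lower in the high than in the low bin in each library, whereas Cldn7 differs little. Cldn8 in the jejunum of mouse 2 reaches at most 0.868 CPM and rests on few UMIs.

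Few other claudins were seen. Of 25 further claudin symbols, 11 were tested in the villus class and 4 in the crypt class. Every symbol starting with Cldn was taken, so Cldnd1 and Cldnd2 are included. In any sum 3 reached 5 CPM, Cldn14, Cldn19 and Cldnd1, the last at 28.5 to 49.9 CPM in the villus class. By edgeR 1 and 1 were called, beside 6.86% and 3.21% of all genes. With the animal as a block 1 and 1 were called, beside 16.5% and 9.4%. DESeq2 called 1 and 0, beside 18.6% and 3.22%. Cldn19 was called toward the jejunum in the villus class, at 15.5 and 18.9 CPM in the ileum, against 32.7 and 41.6 CPM in the jejunum (log2 -1.22, adjusted p = 0.0381 by edgeR). Cldn14 was called toward the ileum in the crypt class, at 10.1 and 11.3 CPM in the ileum, against 3.30 and 3 CPM in the jejunum (log2 1.71, adjusted p = 0.0332 by edgeR), a call that DESeq2 did not make. In the villus class Cldn14 had a log2 fold change of -0.52 (adjusted p = 0.119 by edgeR). Both share a locus with an annotated antisense or overlapping gene, so their UMIs are uncertain. Of 27 tight junction partners, such as occludin and the ZO proteins, 1 was called in the villus class and 1 of 25 tested in the crypt class, beside 6.86% and 3.21% of all genes, both Cgnl1, encoding paracingulin. With the animal as a block 3 and 4 were called, beside 16.5% and 9.4% of all genes. DESeq2 called 3 and 1, beside 18.6% and 3.22%. Cgnl1 was at 56.0 and 24.2 CPM in the ileal villus class and at 4.27 and 1.43 CPM in the jejunum (log2 3.68, adjusted p = 0.0329 by edgeR), and at log2 2.26 in the crypt class (adjusted p = 0.0452).

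Of 6 genes of sodium and glucose uptake, 0 were called toward the ileum and 2 toward the jejunum in the villus class, beside 2.85% of all genes toward the jejunum. With the animal as a block 5 of 6 were called, all toward the jejunum, beside 16.5% of all genes in either direction. DESeq2 called 4, beside 18.6%. Slc9a3, the sodium-hydrogen exchanger of the brush border, was at 13.5 and 10.3 CPM in the ileum, against 67.6 and 103 CPM in the jejunum (log2 -2.96, adjusted p = 0.016 by edgeR). It was also the 1 of 6 called in the crypt class (-1.28, adjusted p = 0.0266 by edgeR), beside 3.21% of all genes, and DESeq2 called 0 there. Slc15a1, the peptide transporter, had a log2 fold change of -1.28 (adjusted p = 0.0299 by edgeR). The median log2 fold change of the 6 was -0.98 in the villus class, beside -0.01 over all genes. Of the calcium uptake list, 1 of 4 tested was called in the villus class and 0 of 4 in the crypt class. The shares of all genes called were 6.86% and 3.21%. The 1 called was Vdr, the vitamin D receptor, at 55.9 and 48.4 CPM in the ileum, against 25.8 and 15.2 CPM in the jejunum (log2 1.23, adjusted p = 0.0488 by edgeR). In the crypt class 1 of the 4 had an unadjusted p under 0.05. With the animal as a block 2 and 1 of the calcium genes were called, beside 16.5% and 9.4% of all genes. DESeq2 called 3 and 0, beside 18.6% and 3.22%. None of the 4 tested claudin-7 partners (EpCAM and its regulators), the 9 adherens junction genes or the aldosterone response genes (6 tested in the villus class and 5 in the crypt class) was called by edgeR in either class without the block. With the animal as a block, 0, 1 and 0 were called in the villus class and 0, 1 and 1 in the crypt class. The block called 16.5% and 9.4% of all genes in these classes. At an unadjusted p under 0.05 these 3 lists held 0, 2 and 0 genes in the villus class and 0, 1 and 1 in the crypt class. DESeq2 called 0, 1 and 0 in the villus class, beside 18.6% of all genes, and 0, 0 and 0 in the crypt class, beside 3.22%.

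Genes with patterns most like the members were read as a description over the 8 sums of library and class, by Pearson's r of log2(CPM + 5), among 8845 genes with at least 20 CPM in 1 sum. Sums of 1 library share cells and depth, and with 8 points high correlations are common. Cldn15 was followed most closely by Lgals2 (Pearson r 0.998), Lmna (0.995) and Taco1 (0.992), and Cldn3 by Hspa9 (0.997), Rdm1 (0.992) and Nipsnap2 (0.991). The nearest genes to Cldn4 were Pon3 (0.995), Wbp1l (0.994) and Lgals3 (0.994), and those to Cldn8 were Emid1 (0.993), Usb1 (0.987) and Epas1 (0.987). For Cldn2 the nearest was Ndufb3 (0.970), for Cldn7 Kbtbd2 (0.984), for Cldn12 Ccnk (0.959) and for Cldn23 Dld (0.983).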

How the data were processed

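The authors aligned reads with PIPseeker at resolution 3, and the build in the submitters' processing notes was GRCm39. The files as deposited give raw UMI counts for each gene in each called cell. Following the study, a gene had to be seen in at least 3 cells of a library, and a cell needed over 1000 and under 6000 genes and less than 20% mitochondrial UMIs. Scrublet (expected share 6%) marked 1 or 2 cells per library and so did not work as a caller, and no cell was removed. Seurat 5.3.0 integrated the libraries by CCA and clustered 30 dimensions at resolution 1 into 23 clusters, without the 8 members among the variable genes. Classes were named from fixed markers by limits that were chosen once the data were known. Each class of each library was summed into 1 column of UMI counts and tested with edgeR 4.0.16 (filterByExpr, TMM, quasi-likelihood, R 4.3.3), region as the only term and Benjamini-Hochberg adjustment over all genes tested. The interaction used all 8 sums, blocked by library. DESeq2 1.42.0 and the fit with the animal as a block were alternatives. The series design and titles pair the libraries by mouse, and deviations of libraries of 1 mouse correlated across genes (r = 0.458 in the villus class and 0.35 in the crypt class). With 2 libraries per region, p-values rest on 2 mice, and an exact permutation test could not go below 0.333. Members were all described, list genes were named where called, and the members and lists were chosen with earlier results of these data known. The fits were tested on simulated data. Leaving out the cluster led by Fsip1 and thinning each cell to 2000 UMIs were alternatives chosen after seeing the data. Exact intervals and limits on shares of cells cover counting error only. The intervals on log2 fold changes come from the edgeR fit and also take in the variation between libraries.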

Additional observations from a re-analysis of the deposited data

Results flagged for a closer look

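The region difference of Cldn15 differed between the cell classes. The log2 fold change of ileum over jejunum was 1.70 lower in the enterocyte-like than in the stem/progenitor-like class (-1.70, interaction adjusted p = 3.5e-05 by edgeR), and the villus ratio was the lower one in both mice.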

How the results depend on the processing

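Of 376 recomputed log2 fold changes of the 8 claudins, 318 kept their direction and side of the threshold, 9 lost the call, 29 gained one and 20 changed direction, none of the last called. In the villus class 1 claudin was called, against 3 with DESeq2, 3 with the replicate block, 2 with each cell thinned to 2000 UMIs, 0 with no filter on low counts and 0 without the 6% highest Scrublet scores. In the crypt class 1 was called, against 0 with DESeq2, 2 with a mitochondrial share under 10% and 2 without the cluster led by Fsip1. In all kept cells 1 was called, against 4 with DESeq2, 3 with the block and 0 with no filter. For the interaction 1 was called, against 3 with no filter, 4 with a mitochondrial share under 10%, 2 with each cell thinned and 2 without the Fsip1 cluster. Leaving out 1 library gave 0 to 3 in the villus class, 1 to 2 in the crypt class, 0 to 3 in all kept cells and 1 to 2 for the interaction. Without the ileum of mouse 1 the counts were 0 in the villus class and in all kept cells, and without the jejunum of mouse 1 both were 3. Over all genes, calls in the villus class went from 1353 to 3098 with DESeq2, 3247 with the block and 469 with no filter, and to 110, 395 and 614 without the ileum of mouse 1, the ileum of mouse 2 and the jejunum of mouse 2. In the crypt class they went from 419 to 1228 with the block, 1058 with no filter, 267 with each cell thinned, 279 with clusters at resolution 0.5, and 197, 635 and 214 without the ileum of mouse 1, the jejunum of mouse 1 and the jejunum of mouse 2. In all kept cells they went from 1526 to 3175 with DESeq2, 2702 with the block, 223 with no filter, and 449, 872 and 574 without the ileum of mouse 1, the ileum of mouse 2 and the jejunum of mouse 2, and for the interaction from 1625 to 658 with each cell thinned. Direction changed for Cldn7 in the villus class with no filter (0.012) and over libraries left out (-0.097 to 0.034, above 0 without the ileum of mouse 1 and without the jejunum of mouse 2, 0.013). In the crypt class it changed for Cldn7 with no filter (-0.0057), each cell thinned (-0.036), resolution 0.5 (-0.017) and libraries left out (-0.087 to 0.090), for Cldn4 with each cell thinned (-0.093) and for Cldn23 without the Fsip1 cluster (0.17). Over libraries left out it also changed there for Cldn2 (-0.41 to 0.24), Cldn3 (-0.085 to 0.30) and Cldn12 (-0.24 to 0.14). In all kept cells Cldn7 changed with each cell thinned (-0.084) and over libraries left out (-0.039 to 0.11). For the interaction Cldn4 changed with a mitochondrial share under 10% (-0.042) and without the Fsip1 cluster (-0.16), Cldn7 over libraries left out (-0.098 to 0.033) and Cldn23 with each cell thinned (0.10). The cause was not tested. The replicate block changed the calls of Cldn8 and Cldn23 in the villus class and in all kept cells and no other claudin call. Settings with 1 library left in a region assume that it varies like the others, and the settings with each cell thinned or without the Fsip1 cluster were chosen after seeing the data. The jejunal Cldn8 values rest on few UMIs, 28 in the villus and 4 in the crypt class of mouse 2.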
